A study of Mus musculus with 8 samples.

Results

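The genes of oxidative phosphorylation were followed across 8 striatum libraries, 4 from Dclk3 knockout (KO) mice and 4 from wild-type (WT) mice, all aged 12 months. They were taken by symbol: the protein-coding genes of the mitochondrial genome and the nuclear genes for subunits of complexes I to V, with assembly factors left out. This gave 100 genes, 87 nuclear and 13 mitochondrial, of which 95 had a row among the 31417 rows of the count table and 90 were tested among 16511 tested genes. Each library came from 1 striatum of 1 mouse, so the replicates are animals. The labels used here give no strain, no sex and no form of the Dclk3 allele.

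Oxidative phosphorylation makes most of the ATP of neurons. Complexes I (NADH dehydrogenase) and II (succinate dehydrogenase) pass electrons to ubiquinone, complex III (cytochrome bc1) hands them to cytochrome c, complex IV (cytochrome c oxidase) passes them to oxygen, and complex V (ATP synthase) uses the proton gradient built on the way. Complexes I, III, IV and V are mosaics, with some subunits encoded by the mitochondrial genome and the others by the nuclear genome. Complex II is nuclear throughout. Dclk3 encodes a doublecortin-like kinase enriched in striatal neurons.

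No oxidative phosphorylation gene passed the test between KO and WT striatum. In the quasi-likelihood fit of edgeR, with p-values adjusted by Benjamini-Hochberg over all genes, 0 of 90 members fell below 0.05, and each of the 90 had an adjusted p of 0.999. DESeq2's Wald test and limma-voom gave 0 members as well. Over all 16511 genes tested, only Dclk3 itself passed (0.00606%). It had 27.7, 19.6, 20.9 and 22.7 CPM (counts relative to the library size after TMM scaling) in KO replicates 1 to 4, against 95.2, 117, 80.9 and 86.1 CPM in WT replicates 1 to 4. No member had KO and WT libraries that did not overlap, a pattern held by 1.93% of all tested genes. An unadjusted p below 0.05 was held by 3 members (3.33%), against 3.76% of all tested genes: mt-Nd2, which was higher in KO, and Cox5b and Cox6a1, which were lower.

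The estimates were narrow for most members. For 91.1% of the 90 members both ends of the 95% interval stayed below a 1.5-fold difference, against 77.8% of all tested genes. The median log2 fold change was 0.01 over 83 nuclear members and 0.12 over 7 mitochondrial members, beside -0.001 over all tested genes. The nuclear medians by complex were 0.012 in complex I (36 genes), 0.032 in complex II (4 genes), 0.004 in complex III (9 genes), 0.045 in complex IV (17 genes) and 0.022 in complex V (17 genes). Complex IV held the widest scatter, from -0.84 to 0.21.

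**Figure D1:**
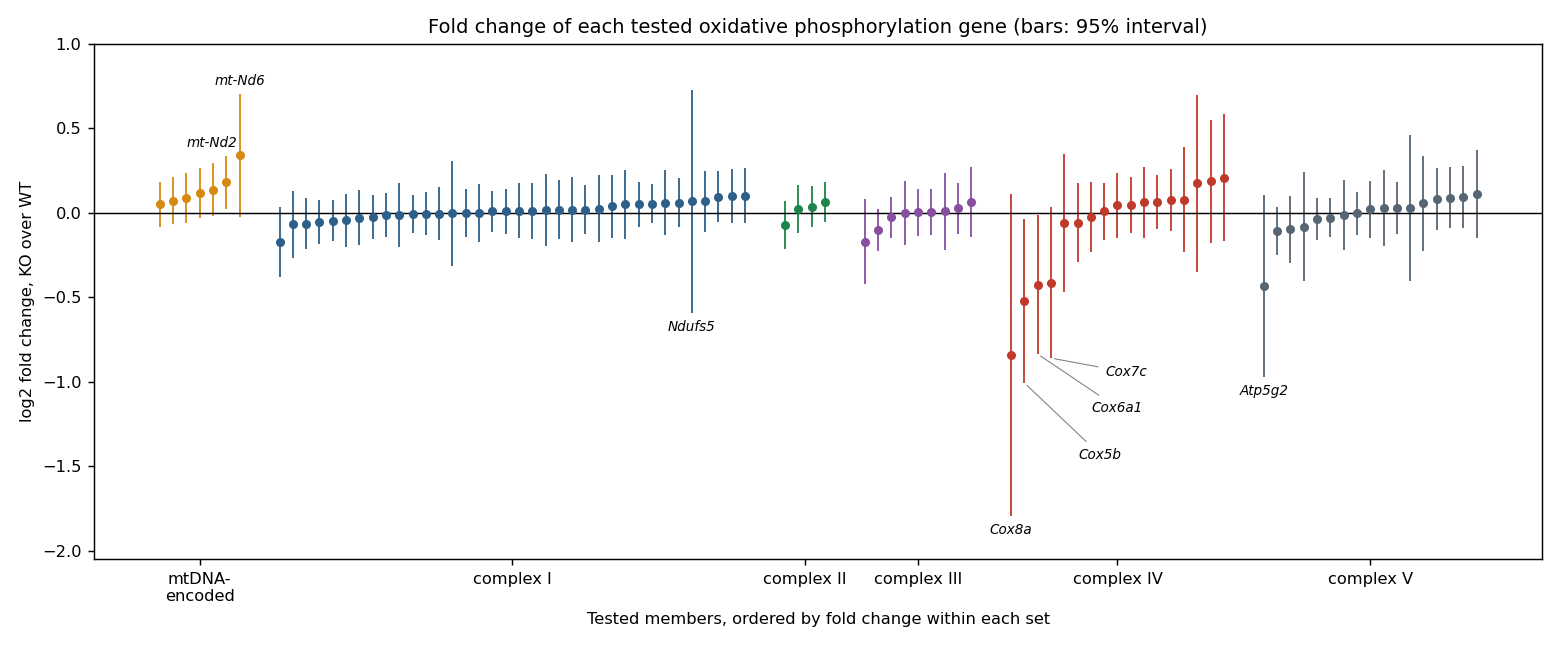
Log2 fold change, KO over WT, of the 90 tested members, ordered by value within the 7 mitochondrially encoded genes and the nuclear genes of each complex, with 95% intervals. Most points lie near 0, and Cox8a, Cox5b, Cox6a1 and Cox7c form the low end of complex IV.

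Total counts ran from 24441242 to 37145559 per library, and Dclk3 was low in all 4 KO libraries, with a log2 fold change of -2.06 (SE 0.14, edgeR quasi-likelihood test, Benjamini-Hochberg adjusted p = 0.000773). All 16 spiny neuron markers were measured, and their summed level ran from 7160 to 8310 CPM in KO and from 7290 to 8690 CPM in WT libraries, with none at 0 counts in any library. Individual libraries stood apart from both groups. On the first principal component (26.8% of the variance) WT replicate 4 and KO replicate 4 were the ends, and on the second (18.9%) WT replicate 2 was the low end. Choroid plexus markers, 8 of 8 measured, summed to 51.8 to 244 CPM in KO libraries, against 2940 CPM in WT replicate 4 and 40.9 to 90.7 CPM in the other WT libraries. In bulk tissue, fewer cells of a type and less RNA per cell cannot be told apart.

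The mitochondrial genome supplied far more counts than the nuclear members. The mitochondrially encoded members took 4.69%, 4.14%, 4.46% and 4.57% of all counts in KO replicates 1 to 4, and 4.41%, 3.81%, 4.37% and 4.08% in WT replicates 1 to 4. The nuclear members took 0.851% to 0.932% in KO and 0.824% to 0.991% in WT libraries. The ratio of the summed mitochondrial to the summed nuclear level was 5.01 ± 0.103 in KO and 4.62 ± 0.383 in WT (SD, n = 4 each), and the ranges overlapped. The mitochondrial shares and sums rest on 7 of the 13 mitochondrial protein genes. The others had next to no counts or no row, so their mRNAs are left out.

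The mitochondrial mRNAs were a little higher on average in KO striatum, within the spread of the libraries. Their summed level was 46992, 41547, 44745 and 45405 CPM in KO replicates 1 to 4, against 44180, 38135, 42856 and 41518 CPM in WT replicates 1 to 4. The means were 44672 ± 2290 CPM in KO and 41672 ± 2600 CPM in WT (SD, n = 4 each), 7.2% apart, and the groups overlapped, with KO replicate 2 below WT replicates 1 and 3. All 7 tested mitochondrial genes had a fold change above 0, a sign shared by 49.5% of all tested genes. Genes on the same mitochondrial strand are cut from a shared precursor transcript. All of the 7 but mt-Nd6 lie on the same strand, so those genes are not separate observations. mt-Nd6, on the other strand, was measured in the same libraries.

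Library by library the mitochondrial mRNAs other than mt-Nd6 moved together. WT replicate 2 was the lowest library for 6 of the 7 genes, and KO replicate 1 was the highest for 4 and KO replicate 4 for the other 3. Without WT replicate 2 the median log2 fold change of the 7 was 0.073. Oligodendrocyte and blood cell markers varied along some of the same libraries. The 12 oligodendrocyte markers, 12 of 12 above 0 in fold change with none at 0 counts, summed to 11200, 9470, 9570 and 11200 CPM in KO replicates 1 to 4, against 10600, 7800, 9300 and 8400 CPM in WT replicates 1 to 4. The 5 blood cell markers, 5 of 5 above 0 with none at 0 counts, summed to 88.9 to 156 CPM in KO and 56.0 to 93.2 CPM in WT, with WT replicate 2 the lowest. Several other marker lists had mostly positive fold changes too. Of the 12 astrocyte markers 10 lay above 0 in fold change. The 12 summed to 7470 to 7950 CPM in KO and 6720 to 7340 CPM in WT, without overlap. The fold changes of 9 of 10 endothelial, 11 of 11 microglial and 9 of 9 thalamic markers lay above 0, with medians of 0.222, 0.084 and 0.458 on the log2 scale. Their sums overlapped, at 432 to 531, 717 to 865 and 211 to 583 CPM in KO and 361 to 458, 671 to 784 and 208 to 336 CPM in WT. The lowest library was WT replicate 3 for the astrocyte, endothelial and thalamic sums and WT replicate 4 for the microglial sum. The highest was KO replicate 1 for the astrocyte sum and KO replicate 4 for the endothelial, microglial and thalamic sums. None of these markers passed the test or was at 0 counts in any library. Other lists went the other way, with 1 of 7 tested ependymal, 0 of 8 choroid plexus and 1 of 8 cortical glutamatergic markers above 0. None of those passed the test either, and 1 ependymal marker was at 0 counts in some library. The part of these cell types in the mitochondrial level was not tested.

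**Figure D2:**
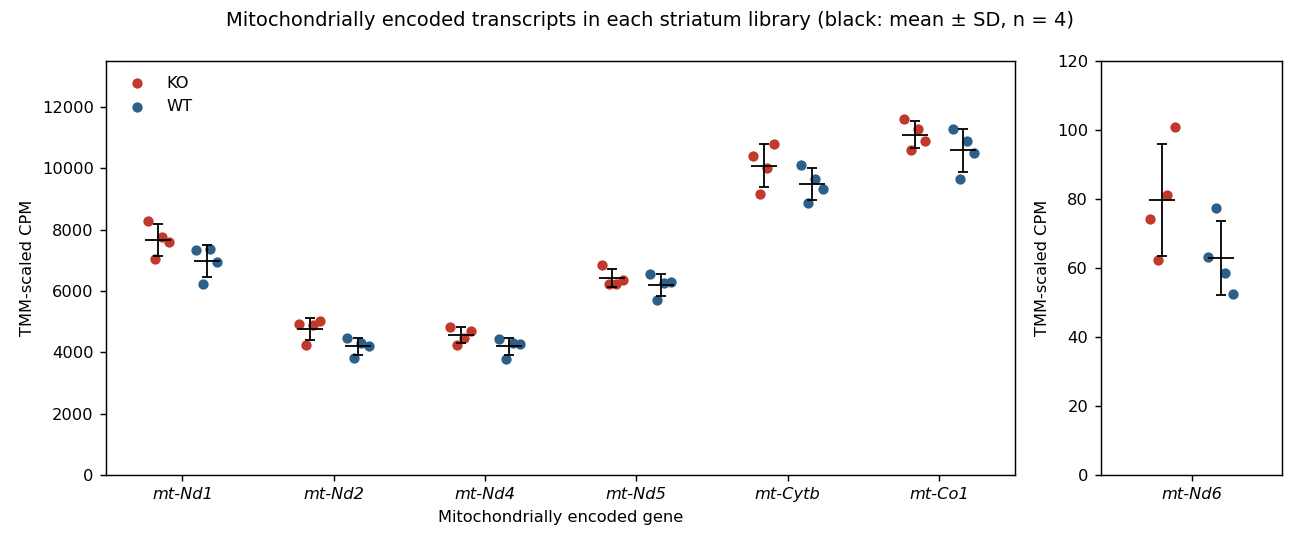
Level in TMM-scaled CPM of the 7 measured mitochondrially encoded genes, KO left of WT, 1 point per library with the mean and SD of 4 libraries; mt-Nd6 has its own axis. The groups overlap for each gene, and the lowest WT library is replicate 2 for all but mt-Nd6.

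Of the complex I genes on the mitochondrial genome, mt-Nd2, a membrane-arm subunit, had 4910, 4230, 4880 and 5010 CPM in KO replicates 1 to 4, against 4470, 3810, 4300 and 4200 CPM in WT replicates 1 to 4. KO replicate 2 fell among the WT libraries and the other 3 KO libraries lay above all of them. Its log2 fold change was 0.18 (SE 0.07, unadjusted p = 0.0269, edgeR's quasi-likelihood test fitted across all genes, Benjamini-Hochberg adjusted p = 0.999).

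The other membrane-arm subunits had smaller differences or a wider spread. mt-Nd1, which lies at the joint of the 2 arms of complex I, had 8290, 7030, 7750 and 7590 CPM in KO libraries and 7330, 6240, 7360 and 6940 CPM in WT libraries, a log2 fold change of 0.14. mt-Nd4 had 4230 to 4820 CPM in KO and 3780 to 4420 CPM in WT, a log2 fold change of 0.12. mt-Nd5 had 6230 to 6850 CPM in KO and 5710 to 6550 CPM in WT, a log2 fold change of 0.05. The groups of all 3 genes overlapped.

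mt-Nd6 is the protein gene read from the other strand of the mitochondrial genome, and its measured level was the lowest of the 7. It had 74.3, 62.4, 81.1 and 101 CPM in KO replicates 1 to 4, against 63.3, 77.5, 58.4 and 52.5 CPM in WT replicates 1 to 4. KO replicate 4 was the highest library, and WT replicate 2, the lowest library for the other 6 genes, was the third highest here. Its log2 fold change of 0.34 had an SE of 0.16, and was 0.13 without KO replicate 4 and WT replicate 4 together. mt-Nd6 (bases 13552 to 14070) lies opposite the end of mt-Nd5, which stops at base 13565. As no source here says whether counting used strand, reads in this short overlap cannot be assigned to a gene. The libraries were made from polyadenylated RNA, and how fully that step captured mt-Nd6 was not tested.

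In complex III, mt-Cytb, the cytochrome b that carries both quinone sites, had 9150 to 10800 CPM in KO and 8880 to 10100 CPM in WT libraries, a log2 fold change of 0.09. In complex IV, mt-Co1, the catalytic subunit that binds the oxygen-reducing heme-copper centre, had 10600 to 11600 CPM in KO and 9640 to 11300 CPM in WT libraries, a log2 fold change of 0.07. Neither pair of groups separated. Per kilobase of transcript the order over the 8 libraries was mt-Cytb (8550 CPM per kilobase), mt-Nd1 (7640), mt-Co1 (7020), mt-Nd2 (4310), mt-Nd5 (3460), mt-Nd4 (3170) and mt-Nd6 (137). mt-Co1 and mt-Nd4 share much of their sequence with nuclear copies, and on a scale of 1000 unshared 50-base words the order turned, with mt-Co1 at 14800 CPM, mt-Cytb at 8930, mt-Nd4 at 8710, mt-Nd1 at 8060, mt-Nd2 at 4930, mt-Nd5 at 3850 and mt-Nd6 at 152. The levels of mt-Co1 and mt-Nd4 relative to the others are therefore uncertain. On the first scale, within each genotype, the intervals of mean ± SD overlap for the neighbours mt-Nd1 and mt-Co1 and for mt-Nd5 and mt-Nd4.

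The other 6 mitochondrial protein genes were not measurable, although they lie among the abundant ones on the same strand. mt-Co2, which receives the electrons of cytochrome c, had 1 count in all, in WT replicate 1. mt-Co3, a core subunit of complex IV, and mt-Nd4l, a membrane subunit of complex I, had 0 counts in every library, where 3 counts correspond to 0.0822 to 0.123 CPM. mt-Nd3, mt-Atp6 and mt-Atp8 have no row in the table, so their counts are unknown and they were not analysed here.

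Their sequences are nearly duplicated in the nuclear genome. Of all 50-base words of the transcript, 100% in mt-Co2, 99.9% in mt-Co3, 98.8% in mt-Nd4l, 99.5% in mt-Atp6 and 98.0% in mt-Nd3 also occur in the transcript of another annotated gene. Each of the 5 matches an unprocessed pseudogene in a block on chromosome 1 (build GRCm38): Gm28661 for mt-Co2, Gm28437 for mt-Co3, Gm10222 for mt-Nd4l, Gm10925 for mt-Atp6 and Gm28438 for mt-Nd3. mt-Atp8 shares 0% and overlaps mt-Atp6. Only annotated transcripts were searched, so a copy without an annotation would not be counted. By contrast mt-Nd1, mt-Cytb and mt-Nd6 share 0%, mt-Nd2 8.2% and mt-Nd5 7.6%, while mt-Co1 shares 51.1% and mt-Nd4 62.2% and yet had more CPM than any nuclear member. The counts did not sit in the copies either: Gm28661 had 9 to 15 counts per library and Gm28438 25 to 55, while Gm28437 and Gm10222 had at most 1. Reads that match 2 places equally well are left out by many counting tools; the tool used here is not given, and its part was not tested.

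The start of mt-Co2 shows how close the copies are. The first 90 bases of the gene (GRCm38 chrM:7013-7696, plus strand) are set beside the start of Gm28661 (chr1:24614885-24615565, minus strand) and of Gm13341 (chr2:22587291-22587962, minus strand), from GENCODE transcripts, with bases that differ from mt-Co2 in capitals.
mt-Co2: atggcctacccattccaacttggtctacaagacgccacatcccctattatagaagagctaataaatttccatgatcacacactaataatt
Gm28661: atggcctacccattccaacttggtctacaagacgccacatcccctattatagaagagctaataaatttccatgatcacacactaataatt
Gm13341: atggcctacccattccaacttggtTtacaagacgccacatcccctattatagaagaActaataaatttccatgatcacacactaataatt
Gm28661 has 0 differences in these bases and 0 over its whole length of 681 bases. Gm13341 has 2 differences in the 90 bases, and it held 70 to 148 counts per library.

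**Figure D3:**
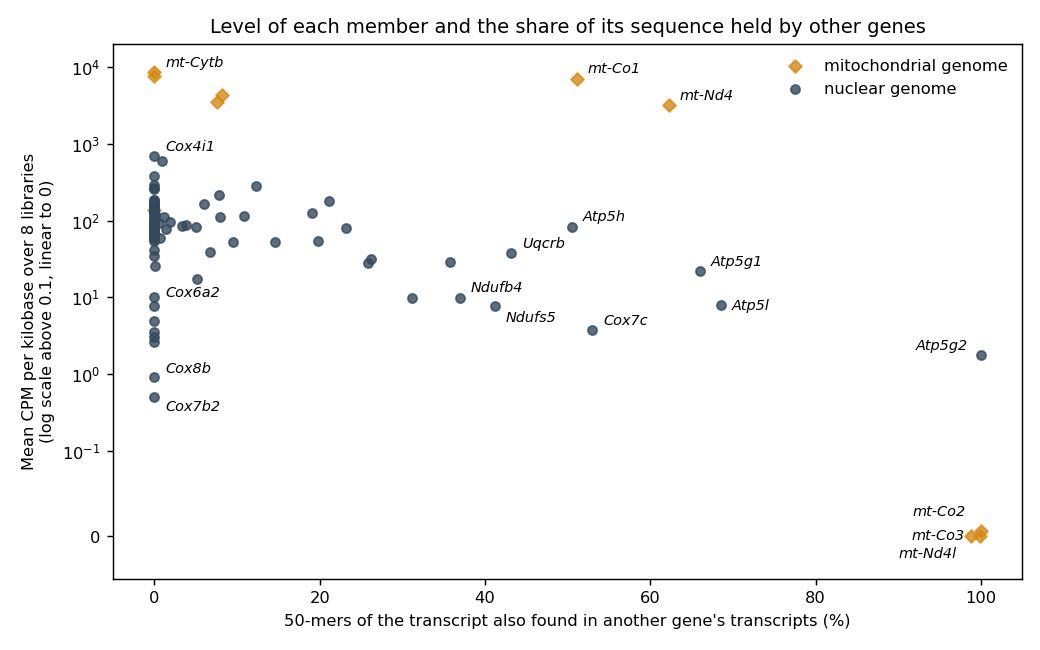
Mean level over 8 libraries, in CPM per kilobase on a log axis that turns linear below 0.1, against the percentage of 50-base words that each of the 95 members with a row shares with another gene. The 3 mitochondrial genes at 98.8% or more lie at or next to 0, and low nuclear genes lie either at 0% or at 31.2% and above.

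Among nuclear members the same feature went with low levels. The median level was 88.2 CPM per kilobase for the 49 members that share no 50-base word, 87.5 for the 17 that share under 10%, and 31.5 for the 19 that share 10% or more. Under 10 CPM per kilobase lay 13 nuclear members, and of these 6 shared 31.2% or more and 7 shared none. The first 6 were Ndufb4, Ndufab1 (the mitochondrial acyl carrier protein) and Ndufs5 of complex I, Cox7c of complex IV, and Atp5l and Atp5g2 of complex V. Cox7c and Cox4i1 are built into the enzyme in equal number, which sets no ratio for their mRNAs. Cox7c had 3.20 ± 0.445 CPM per kilobase in KO and 4.26 ± 1.12 in WT (SD, n = 4 each), and Cox4i1 averaged 689 over the 8 libraries. Because of the shared sequence, the level of these 6 genes is uncertain. Per 1000 unshared 50-base words, Ndufb4 was at 16.6 CPM, Ndufab1 at 14.8, Ndufs5 at 14.4, Cox7c at 8.72 and Atp5l at 28. Cox4i1 was at 738 CPM on that scale, and Atp5g2 has no unshared word. The part of shared sequence in their low counts was not tested.

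Cox7c has a processed copy, Gm10012, on chromosome 17 (chr17:25901856-25902227, plus strand, GRCm38). The first 90 bases of the copy are shown with the matching bases of the Cox7c transcript (gene at chr13:86044816-86046904, minus strand), from GENCODE transcripts, with the base that differs in capitals.
Cox7c: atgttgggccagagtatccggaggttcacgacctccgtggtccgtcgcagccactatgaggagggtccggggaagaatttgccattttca
Gm10012: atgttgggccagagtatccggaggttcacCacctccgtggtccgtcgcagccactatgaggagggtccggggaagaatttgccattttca
Over the 192 bases of the copy's shorter transcript there were 2 differences, an identity of 99.0%. Gm10012 had 0 or 1 count per library.

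The other 7 low genes are minor isoforms, and their sequences are not shared. Subunits of complex IV come in isoform sets, of which some are known from heart and skeletal muscle, lung or testis. The striatum used the common form in each set, in both genotypes. Cox4i1 averaged 689 CPM per kilobase against 3.02 for Cox4i2, the form of lung and of cells exposed to low oxygen. Cox6a1 averaged 282 against 7.66 for Cox6a2, the form of heart and skeletal muscle. Cox6b1 averaged 295 against 4.93 for Cox6b2, the testis form.

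The remaining sets had the same order. Cox7a2 averaged 157 and Cox7a2l, which joins complexes III and IV, 54.6 CPM per kilobase, against 2.63 for Cox7a1, the form of heart and skeletal muscle. Cox7b averaged 94.2 against 0.508 for Cox7b2. Cox8a averaged 153 against 0.916 for Cox8b, another form of heart and skeletal muscle, while Cox8c has no row. Ndufa4, first described in complex I and now placed in complex IV, averaged 257 against 3.55 for its paralog Ndufa4l2. Cox7b2 and Cox8b were below the level needed for a test, and the other minor forms had log2 fold changes between -0.06 for Cox6b2 and 0.21 for Cox4i2, with SEs of 0.14 to 0.24. Complex V has 3 genes for the identical mature subunit c of its rotor: Atp5g3 averaged 262, Atp5g1 21.8 and Atp5g2 1.75, but Atp5g1 shares 66.0% and Atp5g2 100% of their 50-base words, so only Atp5g3, at 0%, has a firm level.

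In complex I the 36 nuclear members scattered little, with fold changes from -0.17 to 0.1 on the log2 scale. The highest per kilobase was Ndufb9, a membrane-arm accessory subunit, with 184 ± 11.1 in KO and 185 ± 17.4 in WT (SD, n = 4 each). The smallest p belonged to Ndufs3, a core subunit of the peripheral arm, which had 26.9, 30.1, 27.4 and 28.1 CPM in KO libraries and 31.8, 37.2, 31.9 and 25.9 CPM in WT libraries. WT replicate 4 was the lowest of all 8 and the other 3 WT libraries were the highest, for a log2 fold change of -0.17 (SE 0.10). Next were the accessory subunits Ndufb11, with 44.7 to 52.4 CPM in KO and 43.1 to 50.8 CPM in WT (log2 fold change 0.10), and Ndufa12, with 34.8 to 37.3 CPM in KO and 30.2 to 38.3 CPM in WT (log2 fold change 0.10). Ndufs5 had the widest spread: 4.26, 3.70, 3.74 and 4.85 CPM in KO libraries and 3.13, 7.02, 2.63 and 2.93 CPM in WT libraries, with WT replicate 2 alone high. Ndufs3 shares 35.8%, Ndufa12 26.2% and Ndufs5 41.2% of their 50-base words, so part of their reads could belong to copies.

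Complex II, which also works in the citric acid cycle, had the narrowest spread of the nuclear sets, a median SD of 0.077 over the 8 libraries on the log2 scale, with 0.079 in complex III next. Sdha, the flavoprotein that oxidises succinate, had 465, 443, 425 and 468 CPM in KO libraries and 440, 441, 423 and 453 CPM in WT libraries. Sdhb, the iron-sulfur subunit, had 98.5 to 108 CPM in KO and 101 to 117 CPM in WT. The membrane anchor Sdhc had 80.0 to 89.6 CPM in KO and 78.1 to 83.1 CPM in WT, and the other anchor, Sdhd, 89.8 to 102 CPM in KO and 90.4 to 104 CPM in WT. Their log2 fold changes were 0.04, -0.07, 0.07 and 0.03 in that order, all with overlapping groups.

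In complex III, Uqcrh, the hinge protein near cytochrome c1, was the highest per kilobase (217), with 135, 104, 122 and 123 CPM in KO and 112, 113, 136 and 102 CPM in WT libraries. Uqcrc1, a core protein outside the electron path, had 212 to 215 CPM in KO and 212 to 244 CPM in WT, a log2 fold change of -0.10. Uqcrq, a small subunit at the quinone-binding face, had 73.0, 76.8, 59.2 and 74.1 CPM in KO and 79.7, 80.2, 93.6 and 64.7 CPM in WT, a log2 fold change of -0.17 (SE 0.11). In both, WT replicate 4 lay among or below the KO libraries and the other 3 WT libraries above them.

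In complex V, Atp5b, the catalytic beta subunit, was the highest per kilobase (603), with 1180, 1100, 1130 and 1150 CPM in KO and 1150, 1220, 1200 and 1110 CPM in WT libraries. Atp5g3 had 171 to 188 CPM in KO and 177 to 209 CPM in WT, a log2 fold change of -0.11. Atp5mpl, a small membrane subunit, had 51.1 to 62.5 CPM in KO and 48.2 to 62.0 CPM in WT, a log2 fold change of 0.09. Atp5g2 had a log2 fold change of -0.43 (SE 0.25) on 0.467 to 0.861 CPM in KO and 0.685 to 1.02 CPM in WT.

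The pair of largest estimated differences, in Cox8a and Cox5b, lay in complex IV, in subunits that surround its mitochondrially encoded core. Cox8a, the smallest subunit, had 50.9, 74.9, 47.1 and 68.1 CPM in KO replicates 1 to 4, against 90.7, 181, 111 and 50.1 CPM in WT replicates 1 to 4. WT replicate 2 was more than double any KO library, while WT replicate 4 lay among the KO libraries. Its log2 fold change was -0.84 (SE 0.40, unadjusted p = 0.0742, edgeR's quasi-likelihood test across all genes), and -0.47 without WT replicate 2. Its SD over the 8 libraries, 0.667 on the log2 scale, was the widest of any tested member, beside a median of 0.118.

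Cox5b, the zinc-binding subunit on the matrix side, had a like order of WT libraries. It had 18, 21.7, 18.7 and 22.2 CPM in KO replicates 1 to 4, against 25.4, 42.6, 27.1 and 20.5 CPM in WT replicates 1 to 4. WT replicate 2 was again the highest, replicates 3 and 1 followed, and WT replicate 4 was again among the KO libraries. Its log2 fold change was -0.52 (SE 0.21, unadjusted p = 0.0381, edgeR's quasi-likelihood test across all genes, Benjamini-Hochberg adjusted p = 0.999), and -0.27 without WT replicate 2. Cox5b shares 25.9% of its 50-base words, so part of its reads could belong to copies.

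Cox6a1, a transmembrane subunit that takes part in the contact between enzyme monomers, had 143, 147, 118 and 141 CPM in KO replicates 1 to 4, against 185, 215, 217 and 120 CPM in WT replicates 1 to 4. Here WT replicates 2 and 3 were both high, and WT replicate 4 was again among the KO libraries. Cox6a1 shares 12.3% of its 50-base words, so part of its reads could belong to a copy. Its log2 fold change was -0.42 (SE 0.18, unadjusted p = 0.0448, edgeR's quasi-likelihood test across all genes, Benjamini-Hochberg adjusted p = 0.999). Without KO replicate 4 and WT replicate 4 together it was -0.60 with an adjusted p of 0.0683 in the same edgeR test adjusted by Benjamini-Hochberg, the lowest adjusted p that any of its 17 alternatives gave. Cox7c, at 1.52 to 2.01 CPM in KO and 1.67 to 3.10 CPM in WT, had a log2 fold change of -0.41 (SE 0.21).

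**Figure D4:**
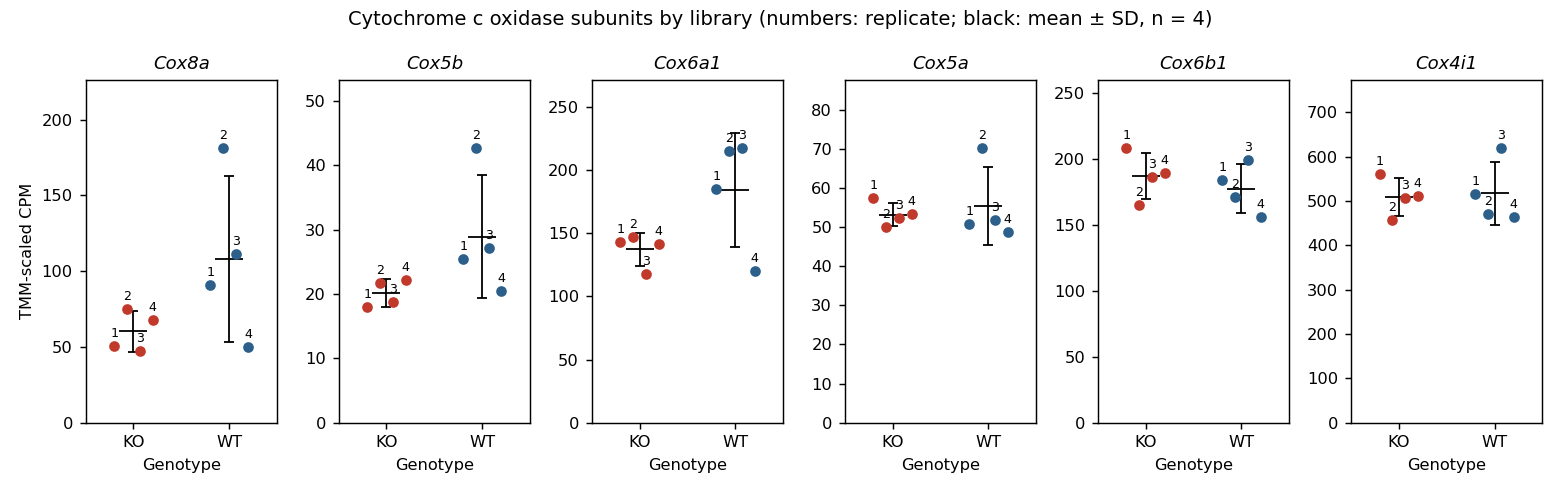
Level in TMM-scaled CPM of 6 complex IV subunits by library, KO left of WT, with replicate numbers, means and SDs of 4 libraries. For Cox8a, Cox5b and Cox6a1, WT replicates 1 to 3 lie above every KO library and WT replicate 4 among them; Cox5a, Cox6b1 and Cox4i1 lack that order.

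Most partners in the same enzyme had no such order. Cox4i1, which regulates the enzyme by binding adenine nucleotides, had 562, 458, 506 and 512 CPM in KO libraries and 517, 470, 619 and 465 CPM in WT libraries (log2 fold change -0.02). Cox6b1, on the side facing cytochrome c, had 165 to 208 CPM in KO and 156 to 199 CPM in WT (log2 fold change 0.08). Cox5a had at most 57.3 CPM in KO libraries, against 70.1 CPM in WT replicate 2 and 48.7 to 51.8 CPM in the other 3 WT libraries. The summed nuclear level of complex IV was 1497 ± 98.1 CPM in KO and 1585 ± 196 CPM in WT (SD, n = 4 each), a log2 ratio of -0.083 with overlapping groups.

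Cortical tissue markers varied along some of the same libraries. The 8 cortical glutamatergic markers, 1 of 8 above 0 in fold change with none at 0 counts, summed to 914, 1240, 1140 and 758 CPM in KO replicates 1 to 4, against 1010, 1470, 1200 and 1290 CPM in WT replicates 1 to 4. WT replicate 2 had the highest sum, as for Cox8a and Cox5b, but WT replicate 4, which resembled the KO libraries in those genes, had the second highest. WT replicate 4 is also the library with the choroid plexus transcripts. Their part in the levels of Cox8a, Cox5b and Cox6a1 was not tested.

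The upstream sequences of these 3 genes were compared for motifs of 3 factors known to bind promoters of respiratory genes. NRF1 was searched as GCGCA, any 1 base and then GCGC, the ETS family, which includes GABP, as CCGGAAG, and YY1 as AAGATGGC, on both strands of RefSeq windows of 300 bases around gene starts (GRCm38.p6). Of the 87 nuclear members 67 had a window. NRF1 letters were found for 17 of them (25.4%), ETS letters for 16 (23.9%) and YY1 letters for 9 (13.4%), against 5.19%, 9.93% and 3.19% of all 27025 genes with a window. At least 1 motif was found for 36 members (53.7%), against 16.4% of all genes, and 4 members held both NRF1 and ETS letters. The comparison took all genes with a window, tested here or not, and did not match them to the members in level or base content. The 250 bases before the start and the 10 bases after it are shown for Cox8a (chr19:7217607-7217866, minus strand), Cox5b (chr1:36691237-36691496, plus strand) and Cox6a1 (chr5:115348949-115349208, minus strand), with matched motifs in capitals.
Cox8a: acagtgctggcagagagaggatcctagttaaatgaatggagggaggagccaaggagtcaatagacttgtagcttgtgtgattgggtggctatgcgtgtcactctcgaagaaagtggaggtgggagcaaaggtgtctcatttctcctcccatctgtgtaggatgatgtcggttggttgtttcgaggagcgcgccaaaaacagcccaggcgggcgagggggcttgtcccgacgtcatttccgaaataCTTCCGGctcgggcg
Cox5b: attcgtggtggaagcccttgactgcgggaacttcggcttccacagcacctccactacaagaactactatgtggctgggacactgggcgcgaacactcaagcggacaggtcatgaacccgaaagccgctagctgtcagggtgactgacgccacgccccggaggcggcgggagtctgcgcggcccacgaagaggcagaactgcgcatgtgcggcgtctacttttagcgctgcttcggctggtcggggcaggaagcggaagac
Cox6a1: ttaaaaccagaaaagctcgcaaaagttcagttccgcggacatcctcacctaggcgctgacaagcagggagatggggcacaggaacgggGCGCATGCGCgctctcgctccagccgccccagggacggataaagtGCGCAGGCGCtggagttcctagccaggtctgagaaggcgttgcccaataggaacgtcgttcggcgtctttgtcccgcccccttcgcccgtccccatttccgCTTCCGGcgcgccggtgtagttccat
Cox6a1 holds NRF1 letters at 2 places and ETS letters at 1 place, and Cox8a holds ETS letters at 1 place, across the start itself; both ETS matches are on the opposite strand. Cox5b holds no exact match to the 3 motifs, in these bases or in the whole window. Near matches were not searched in any gene.

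Cox8a, Cox5b and Cox6a1 were not alone in their order. WT replicates 1 to 3 lay above every KO library for 11 of the 83 tested nuclear members (13.3%), against 3.88% of all tested genes, a pattern chosen after it was seen. The 11 include the genes in which it was seen, and the share over all genes was not matched for transcript length. The other 8 were Ndufa6, Ndufb2, Ndufs3, Uqcrc1, Uqcrq, Cox7c, Atp5d and Atp5g2. No member had groups without overlap, so WT replicate 4 had to lie among or below the KO libraries in all 11.

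Over the nuclear members as a whole, the library medians of both genotypes spread to either side of 0. The median deviation from the 8-library mean, on the log2 scale, was 0.076, -0.074, -0.006 and 0.025 in KO replicates 1 to 4, and -0.002, -0.035, 0.12 and -0.128 in WT replicates 1 to 4. WT replicate 3 was the highest library for 42 of the 83 tested nuclear members and WT replicate 4 the lowest for 36. The extremes of both directions were thus WT libraries. WT replicate 2 was the highest for 12 members and the lowest for 11, so the members did not all move alike.

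Most of these transcripts are short, and other short transcripts deviated alike. The 378 other protein-coding genes with transcripts under 1000 bases and at least 10 CPM had medians of 0.048, -0.053, 0.012 and 0.017 in KO replicates 1 to 4, and 0.007, -0.055, 0.136 and -0.114 in WT replicates 1 to 4. Genes of 4000 bases or more had the opposite sign at the extremes, with -0.075 in WT replicate 3 and 0.056 in WT replicate 4. Among the nuclear members, the 54 under 1000 bases deviated by 0.142 in WT replicate 3 and -0.147 in WT replicate 4, and the 29 longer ones by 0.102 and -0.052. The mitochondrial members departed from this most in WT replicate 3, at -0.017, and in WT replicate 2, at -0.168, their lowest value. In KO replicates 1 to 4 they were at 0.119, -0.053, 0.064 and 0.104, the same order of libraries as for the nuclear members. The part of transcript length in these levels was not tested.

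**Figure D5:**
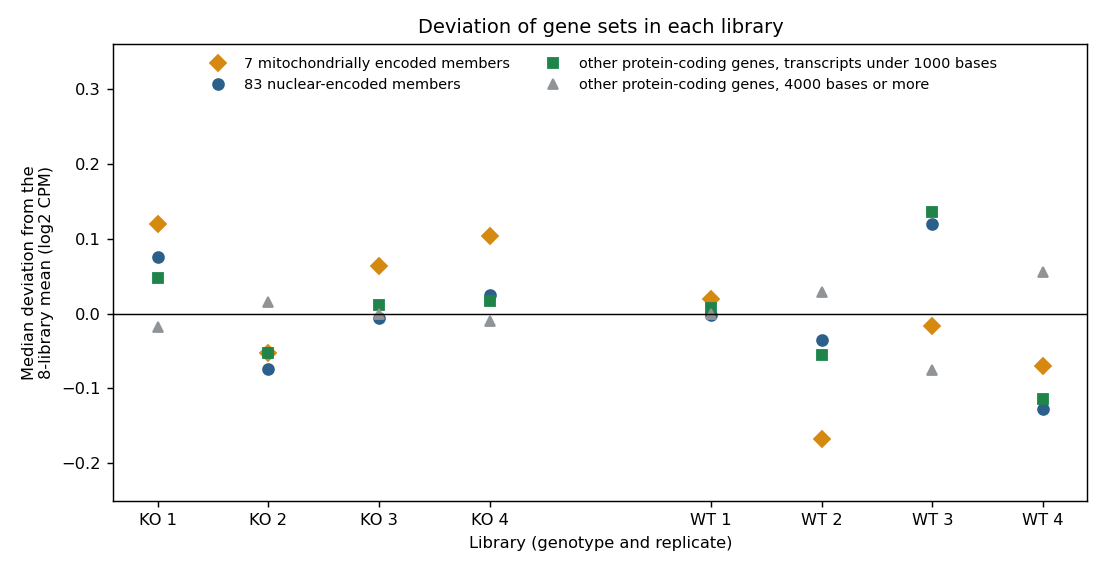
Median deviation from the 8-library mean, in log2 CPM, of the 7 mitochondrial and 83 nuclear members and of other protein-coding genes at 10 CPM or more with transcripts under 1000 or of at least 4000 bases, by library. Nuclear members and other short transcripts lie close to each other in each library. They run from -0.128 and -0.114 in WT replicate 4 to 0.12 and 0.136 in WT replicate 3. The mitochondrial members depart from them most in WT replicates 2 and 3.

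Genes that build, feed or regulate the respiratory chain gave 0 calls as well, beside the 0.00606% of all genes. Of the 48 tested assembly factors 29 had a fold change above 0, and their median was 0.016 on the log2 scale. The smallest p among them belonged to Tmem70, an ATP synthase assembly factor, with 32.8 ± 1.60 CPM in KO and 29.9 ± 0.673 CPM in WT, and to Coa6, a copper-handling factor of complex IV, with 5.87 ± 0.899 CPM in KO and 8.02 ± 2.31 CPM in WT (SD, n = 4 each). Of 29 genes that copy, process or translate the mitochondrial genome 15 lay above 0, with a median of 0; Polrmt, the mitochondrial RNA polymerase, had 28.4 ± 0.929 CPM in KO and 31.9 ± 2.83 CPM in WT, and Fastkd5, which processes mitochondrial mRNA, 4.98 ± 0.604 CPM in KO and 5.77 ± 0.519 CPM in WT. Of 77 mitochondrial ribosomal proteins 35 lay above 0, with a median of -0.01, and in 1, Mrpl58, KO and WT libraries did not overlap (26.4 ± 1.20 CPM in KO and 29.4 ± 1.24 CPM in WT), where 1.93% of all genes had that pattern. Mrpl57 had 12.8 ± 1.12 CPM in KO and 15.2 ± 2.54 CPM in WT.

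Among 17 transcriptional and signalling regulators of mitochondrial biogenesis 11 had a fold change above 0, and their median was 0.032 on the log2 scale. Gabpb2, a partner chain of the ETS factor GABP, was the only one whose libraries did not overlap, beside 1.93% of all tested genes, with 32.9 ± 1.08 CPM in KO and 29.0 ± 1.18 CPM in WT (SD, n = 4 each; edgeR quasi-likelihood test, Benjamini-Hochberg adjusted p = 0.999). Ppargc1a, the coactivator PGC-1alpha, had 60.8 ± 5.18 CPM in KO and 55.0 ± 5.05 CPM in WT. Of 21 genes of the citric acid cycle and pyruvate dehydrogenase 16 lay above 0, with a median of 0.028; Suclg1, a succinyl-CoA ligase subunit, had 95.5 ± 5.51 CPM in KO and 88.2 ± 2.16 CPM in WT and was the only one of the 21 without overlap, again beside 1.93%, and Mdh2, malate dehydrogenase, 260 ± 6.81 CPM in KO and 283 ± 20.7 CPM in WT. Of 17 electron shuttle, carrier and porin genes 8 lay above 0, with a median of -0.01. Cycs, cytochrome c itself, had 11.9 ± 0.615 CPM in KO and 10.7 ± 0.559 CPM in WT, and Ckb, brain creatine kinase, 860 ± 20.6 CPM in KO and 922 ± 60.8 CPM in WT.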

How the data were processed

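Polyadenylated RNA from the striatum of 4 KO and 4 WT mice was sequenced with a stranded kit, from 1000 ng of total RNA with 12 PCR cycles, per the labels' protocols. The authors deposited whole-number counts per Ensembl gene, without normalization; base calls came from bcl2fastq 2.17.1.14 and the build was mm10, per the submitters' processing notes. No source here names the aligner, counting tool, annotation release or strand setting. Identifiers were matched to GENCODE vM21 (GRCm38): 31292 matched and 125 did not.

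Counts were filtered by filterByExpr (minimum count 10), scaled by TMM and fitted with the robust quasi-likelihood test of edgeR 4.0.16 in R 4.3.3, genotype being the only term; p-values are two-sided and were adjusted by Benjamini-Hochberg over 16511 genes, with a threshold of 0.05. For Dclk3 an exact permutation test over 70 assignments gave p = 0.0286, the smallest possible. CPM per kilobase used the shortest principal transcript; sharing of 50-base words was counted on the same transcript. Log2 deviations used a prior count of 2. Pandas 2.3.3 and matplotlib 3.10.9 were used for tables and figures, and the fit was tested on simulated data.

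The members and lists were chosen with earlier results of these data known. Named are all measured mitochondrial members, in each complex the highest nuclear member per kilobase and the 3 with the smallest p, isoform sets, members whose groups do not overlap, the 2 smallest p of each pathway list, and Dclk3; other genes named were chosen after their values were seen. The floor of 3 counts covers counting error only. Alternatives were other scalings and filters, DESeq2 1.42.0, limma-voom (limma 3.58.1), a replicate block and leaving out libraries.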

Additional observations from a re-analysis of the deposited data

Results flagged for a closer look

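Within a genotype, 12 of 184 groups of 4 libraries examined held 1 library far from the other 3, where chance gives about 1 in 20. In the KO group, mt-Nd2 was low in replicate 2 (4230 CPM, the other 3 at 4880 to 5010), as were Uqcr11 (42.8, the others 54.0 to 54.3) and Atp5h (45.1, the others 53.7 to 54.4). KO replicate 1 was high for Ndufb9 (141, the others 125 to 126) and Uqcrfs1 (96.1, the others 84.6 to 86.0), and KO replicate 3 for Ndufb2 (27.2, the others 26 to 26.2). In the WT group, replicate 4 was low for Ndufa2 (37, the others 44.8 to 46.0) and Ndufa6 (35.0, the others 43.1 to 43.7). WT replicate 3 was high for Ndufv2 (108, the others 96.7 to 98.0) and Sdhd (104, the others 90.4 to 90.9). WT replicate 2 was high for Ndufs5 (7.02, the others 2.63 to 3.13) and Cox5a (70.1, the others 48.7 to 51.8).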

How the results depend on the processing

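In all 17 alternatives 0 members passed an adjusted p of 0.05, and the 52 named genes with a fold change, Dclk3 counted apart, kept their direction in 854 of 883 values. The 29 reversals fell in 11 members with a fold change near 0. Leaving out 1 library, the log2 fold change ranged from -0.07 to 0.085 for Atp5g1, -0.074 to 0.074 for Cox4i1, -0.114 to 0.078 for Cox5a, -0.164 to 0.048 for Cox6b2, -0.054 to 0.072 for Cox7a2, -0.026 to 0.113 for Cox7a2l, -0.006 to 0.15 for Cox7b, -0.022 to 0.091 for Ndufa4, -0.048 to 0.063 for Ndufb9, -0.081 to 0.512 for Ndufs5 and -0.007 to 0.079 for Sdhd. Without WT replicate 4 and KO replicate 4 together, Atp5g1 was at -0.019, Cox6b2 at 0.039, Cox7a2 at -0.061 and Ndufs5 at -0.147, and by limma-voom Cox7a2 was at -0.007 and Ndufb9 at 0.005; the cause was not tested. The whole-table count of 1 gene was 3 by the DESeq2 Wald test and 3 without WT replicate 4 and KO replicate 4 together, and ran from 1 to 2 when 1 library was left out (2 without WT replicate 1); the cause was not tested. Dclk3 kept its fold change with no filter (-2.07) but had an adjusted p of 0.0647 there by edgeR's quasi-likelihood test, adjusted by Benjamini-Hochberg, with more low genes tested. The 1 gene passing there was another, Malat1, a nuclear noncoding RNA, higher in KO (log2 fold change 0.57, adjusted p = 0.000682 by the same edgeR test without the filter and 0.286 with it). The mitochondrial median ranged from 0.073 (without WT replicate 2) to 0.153 and stayed above 0. The nuclear median ranged from -0.036 to 0.051 and crossed 0. Over members with under 10% shared 50-base words, an alternative chosen after seeing the data, the medians were 0.138 for mitochondrial and 0.011 for nuclear members. Replicate numbers did not pair the libraries, with correlations of deviations of 0.0373, 0.0205, 0.0532 and -0.276; with the number as a replicate block 1 gene and 0 members passed, and the medians were 0.12 and 0.012. No KO library correlated best with the WT library of its own number.

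Precision was limited by 4 animals a group, by libraries that stand apart (WT replicates 2 and 4, KO replicate 4), by members whose sequence has copies, and by the unknown counting method. Protein, enzyme activity and mitochondrial DNA were not measured.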
